A study of Homo sapiens with 2 samples.

Results

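The mucins are large glycoproteins that coat epithelial surfaces, and 10 of their genes are described here in H322c cells, an established non-small cell lung cancer (NSCLC) line, with and without inhibition of the EGFR. The members were all probe sets paired with a single gene among MUC1, MUC3A, MUC4, MUC13, MUC15, MUC16, MUC20, MUC2, MUC5AC and MUC5B, which gave 10 of 19775 genes and 27 of 41097 probe sets with a single gene. The cells received 1 µM gefitinib, a small molecule inhibitor of the EGFR kinase, or 0.1% DMSO as the vehicle control, both for 4 days in medium with serum and starting 24 hrs after plating. Total RNA was hybridized to 1 Affymetrix U133 Plus 2.0 array per condition. Both groups are therefore cultures of 1 cell line with no replicates, no test was possible, and every difference below describes these 2 arrays only.

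Mucins carry long stretches rich in serine and threonine that are covered with O-linked sugars. The membrane mucins (MUC1, MUC3A, MUC4, MUC13, MUC15, MUC16 and MUC20) stay anchored in the apical membrane, where several of them also touch receptor tyrosine kinases, while the secreted mucins MUC2, MUC5AC and MUC5B assemble into the gel that lines airway and gut. In airway epithelium EGFR signaling is best known for driving MUC5AC in goblet cells. An array of this kind measures a transcript with probe sets, groups of short oligonucleotides, and a gene may have several. The values are MAS5 signals in arbitrary units, signals under 100 were set to 100 on both arrays (the floor), and a gene or probe set was called measured when it reached this floor on at least 1 array. If only 1 array reached it, the fold computed this way is the smallest the signals allow, and it carries the words at least.

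Of the 7 membrane mucins, MUC15, MUC16 and MUC20 were much higher on the gefitinib array, MUC1 and MUC3A lay within 2-fold and MUC4 and MUC13 were not measured, and no secreted mucin was measured. Of the 10 mucins, 5 were measured, all of them membrane mucins, and 5 stayed under the floor on both arrays. This was near the share of all 19775 genes that were measured, 56.8%. Each gene was represented by its brightest probe set (mean of the log2 signals of both arrays), and by this rule 3 of the 5 measured mucins (MUC15, MUC16 and MUC20) were at least 2-fold higher with gefitinib, against 13.3% of the 11223 measured genes of the whole array. None was at least 2-fold lower, against 6.2% of measured genes. The family was chosen with earlier results of these data known, so its shares beside those of all genes describe it and test nothing. By probe set, 8 of 10 measured mucin probe sets were at least 2-fold higher, against 12.1% of 20172, and 0 were at least 2-fold lower, against 7.26%. The 8 belong to MUC1 (2), MUC15 (2), MUC16 (1) and MUC20 (3), and probe sets of the same gene are not independent. Of these, 227241_at of MUC15 and 230043_at of MUC20 counted as measured only through the gefitinib array. At a threshold of 1.5-fold MUC15, MUC16 and MUC20 were again the genes called higher, against 26.4% of measured genes, and 0 were lower, against 14.9%. At 3-fold the same 3 were again higher, against 4.78%, and 0 were lower, against 2.05%. The median log2 ratio of the 5 measured mucins was 2.20, beside 0.12 over all measured genes. Because these are bulk RNA samples, a change in the share of cells that express a mucin and a change in mucin RNA per cell cannot be told apart.

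**Figure D1:**
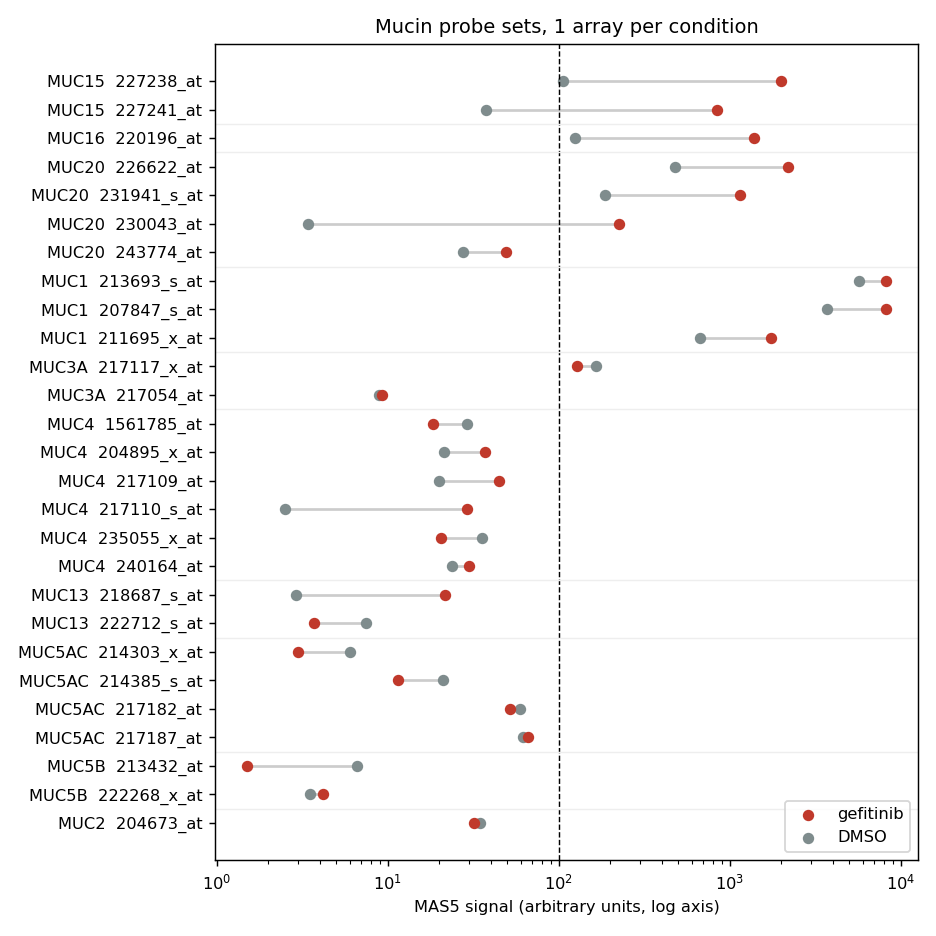
MAS5 signal (horizontal log axis) of all 27 mucin probe sets on the gefitinib array (red) and the DMSO array (grey), 1 array per condition, with the floor of 100 as a dashed line. The red points of MUC15, MUC16 and 3 MUC20 probe sets lie at 224.0 or higher with their grey partners to the left, whereas the probe sets of MUC4, MUC13, MUC5AC, MUC5B and MUC2 lie left of the floor on both arrays.

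MUC15, a membrane mucin first known from the milk fat globule membrane, had the highest ratio of the family. Its probe set 227238_at had a signal of 2001.0 on the gefitinib array and 106.2 on the DMSO array, 18.8-fold higher (log2 ratio 4.24). At 227241_at the signal was 840.5 with gefitinib and 37.6 with DMSO, at least 8.41-fold higher. Both MUC15 probe sets thus went the same way, and in both the DMSO signal was near or below the floor. By its log2 ratio MUC15 ranked 6 among the 10190 genes that reached the floor on both arrays. The log2 ratio at 227238_at ran from 4.04 to 4.41 over the 5 other scalings of the arrays, and with a floor of 200 it became a bound of 3.32.

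MUC16 carries the CA125 antigen, is known from the surface of airway, ocular and ovarian epithelium, and was the second highest of the family. It was measured by a single probe set, 220196_at, with a signal of 1387.9 on the gefitinib array and 123.7 on the DMSO array. The difference was 11.2-fold (log2 ratio 3.49), which ranked MUC16 at 15 of the 10190 genes. The DMSO signal was close to the floor, and with a floor of 200 the log2 ratio became a bound of 2.79.

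MUC20, a membrane mucin that is known to bind the receptor MET, was measured at 3 of its 4 probe sets and was higher with gefitinib at each of them. At 226622_at, which stands for the gene, the signal was 2189.2 with gefitinib and 477.0 with DMSO, 4.59-fold higher (log2 ratio 2.20, rank 118). At 231941_s_at it was 1151.1 with gefitinib and 187.6 with DMSO, 6.14-fold higher. In both, the DMSO signal was above the floor, so the transcript was also measured without the drug. At 230043_at the signal was 224.0 with gefitinib and 3.4 with DMSO, at least 2.24-fold higher. Over the scalings the bound at 230043_at ran from 0.94 to 1.34 in log2 ratio, so it did not reach 2-fold under all of them. At 243774_at the signals were 49.3 with gefitinib and 27.5 with DMSO, both under the floor. The reference also lists MUC20P1, a pseudogene copy of MUC20, and how far the MUC20 probes match it was not tested.

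MUC1, which lines most simple epithelia and whose cytoplasmic tail binds the EGFR and beta-catenin, had 3 probe sets that were all higher with gefitinib but lay on both sides of 2-fold. At 213693_s_at, which stands for the gene, the signal was 8220.3 with gefitinib and 5712.1 with DMSO, 1.44-fold higher (log2 ratio 0.53, rank 2809). At 207847_s_at it was 8257.8 with gefitinib and 3723.2 with DMSO, 2.22-fold higher. Over the scalings the log2 ratio at 207847_s_at ran from 0.96 to 1.33, so it did not reach 2-fold under all of them. At 211695_x_at the signal was 1753.2 with gefitinib and 674.1 with DMSO, 2.60-fold higher. The mean log2 ratio over the 3 probe sets was 1.02 (SD 0.44 between probe sets), and over all genes the SD between measured probe sets of 1 gene was 0.58 (5432 genes). Whether MUC1 counts as 2-fold higher therefore depends on the probe set taken: it did with the mean over probe sets and with the probe set of the highest signal on either array (log2 ratio 1.15), so that 4 of 5 mucins were then called.

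MUC3A, a membrane mucin of the gut, was the only measured member that was lower. At 217117_x_at its signal was 128.6 with gefitinib and 165.4 with DMSO, 1.29-fold lower (log2 ratio -0.36), a difference smaller than the SD of 0.58 between probe sets. At 217054_at the signals were 9.3 with gefitinib and 8.9 with DMSO. A suffix of _x_at marks a probe set whose probes may match other transcripts, and MUC3A has near-identical relatives, so this value is uncertain for MUC3A itself. MUC3, a separate entry of the annotation, had 2 probe sets, both under the floor with gefitinib and with DMSO.

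**Figure D2:**
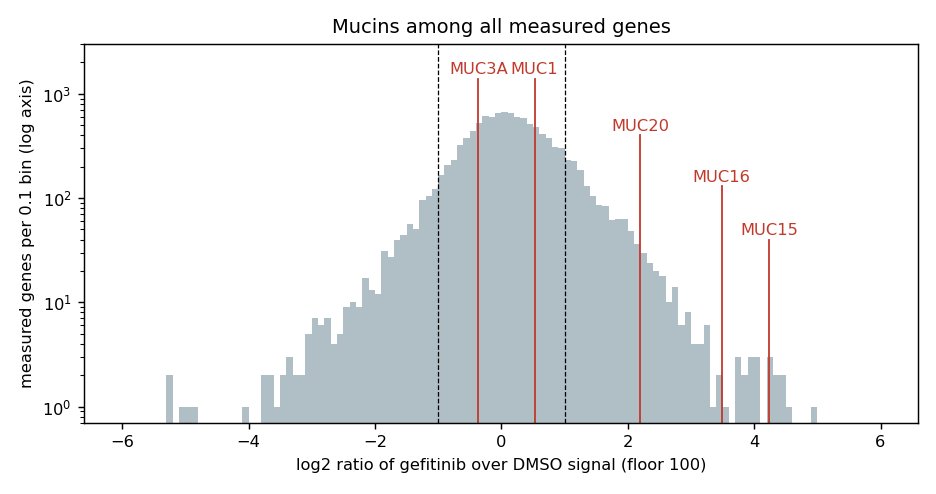
Number of measured genes (vertical log axis) by log2 ratio of gefitinib over DMSO signal in bins of 0.1 (horizontal axis), for all 11223 measured genes, 1 array per condition. Red lines mark the 5 measured mucins, from MUC3A at -0.36 to MUC15 at 4.24, and dashed lines mark 2-fold; the height of a red line has no meaning.

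The order of the measured mucins held under the other ways of processing the signals. MUC20 ran from 1.99 to 2.37 in log2 ratio and MUC1 from 0.34 to 1.15, and MUC3A, where it was measured, stayed below 0, from -0.57 to -0.19.

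**Figure D3:**
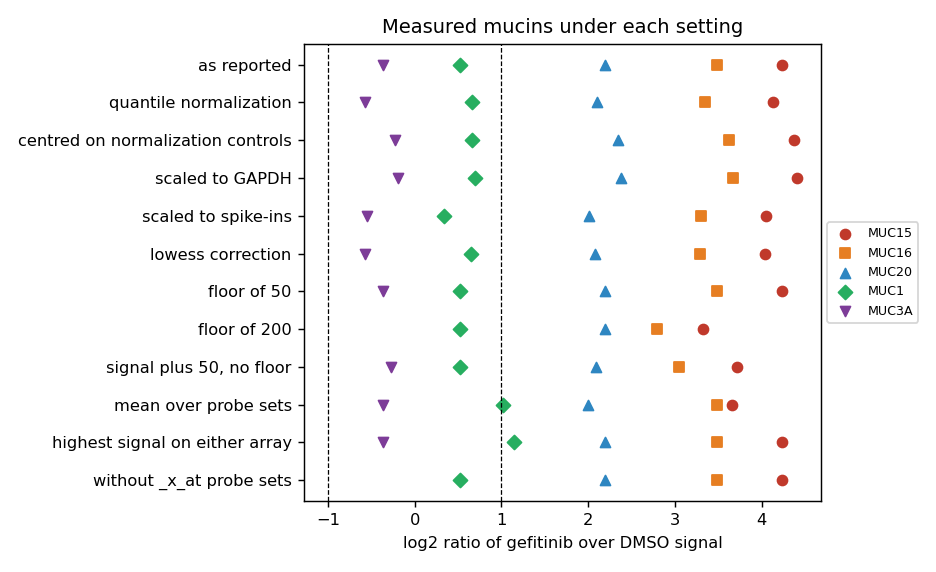
Log2 ratio (gefitinib over DMSO) of the 5 measured mucins under 12 settings of scaling, floor and choice of probe set, 1 array per condition. MUC15 lies between 3.32 and 4.41 and MUC16 between 2.79 and 3.66, and MUC1 is the one that lies on both sides of 2-fold.

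The secreted mucins were below the floor at all 7 of their probe sets, while 49.1% of all probe sets with a single gene were measured. MUC5AC, the gel-forming mucin of airway goblet cells, had signals between 3.0 and 66.4 with gefitinib and between 6.0 and 61.6 with DMSO over 4 probe sets. Its 2 brightest probe sets differed little between the arrays, with 66.4 with gefitinib and 61.6 with DMSO at 217187_at, and 51.8 with gefitinib and 59.0 with DMSO at 217182_at. MUC5B, the gel-forming mucin of submucosal glands, had at most 4.2 with gefitinib and 6.6 with DMSO. MUC2, the main mucin of intestinal goblet cells, had 32.0 with gefitinib and 34.6 with DMSO at its only probe set. The floor lies above the median signal of each array (41.7 with gefitinib and 42.3 with DMSO), and a signal under it does not show that a transcript was absent.

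The remaining membrane mucins, MUC4 and MUC13, were likewise not measured. MUC4, a mucin that binds ERBB2, had signals from 18.4 to 45.0 with gefitinib and from 2.5 to 35.6 with DMSO over 6 probe sets. MUC13, a mucin of gut and airway epithelium with EGF-like domains, had 21.7 with gefitinib and 2.9 with DMSO at 218687_s_at, and 3.7 with gefitinib and 7.5 with DMSO at 222712_s_at. On the reference MUC4 lies next to MUC20, so that of these neighbours MUC20 was 4.59-fold higher and MUC4 was below the floor. The gene on the other side of MUC20, APOD, was also below the floor, as were both protein-coding neighbours of MUC15 (ANO3 and SLC5A12). THBS3, beside MUC1, had a signal of 453.4 with gefitinib and 192.4 with DMSO, 2.36-fold higher, and TRIM46 on its other side had 146.1 with gefitinib and 109.4 with DMSO, 1.34-fold higher. MUC2, MUC5AC and MUC5B lie next to each other and were all below the floor.

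Promoter sequences of RefSeq (GRCh38.p14) were at hand for 6 of the 10 members, of which those of MUC2, MUC3A and MUC4 are not shown. Those of MUC16, which was at least 2-fold higher, MUC1, which was within 2-fold by the same rule, and MUC13, which was not measured, are shown. Each is the stretch of 250 bases upstream of the annotated start of transcription, 5′ to 3′ on the strand of the gene. Capitals mark matches on either strand to GGGCGG (the SP1 motif) or TGANTCA (the AP-1 motif).

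MUC1, chr1:155192916-155193165, minus strand: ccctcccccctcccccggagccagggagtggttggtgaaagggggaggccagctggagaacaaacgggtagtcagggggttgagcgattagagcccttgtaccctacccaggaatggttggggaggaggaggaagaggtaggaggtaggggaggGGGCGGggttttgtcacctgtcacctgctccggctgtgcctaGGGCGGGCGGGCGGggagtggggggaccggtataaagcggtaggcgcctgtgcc

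MUC16, chr19:9065752-9066001, minus strand: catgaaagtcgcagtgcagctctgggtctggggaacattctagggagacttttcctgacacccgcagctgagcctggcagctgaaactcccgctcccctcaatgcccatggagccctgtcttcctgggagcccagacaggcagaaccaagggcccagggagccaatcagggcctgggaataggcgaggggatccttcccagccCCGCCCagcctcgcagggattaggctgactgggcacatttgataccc

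MUC13, chr3:124934752-124935001, minus strand: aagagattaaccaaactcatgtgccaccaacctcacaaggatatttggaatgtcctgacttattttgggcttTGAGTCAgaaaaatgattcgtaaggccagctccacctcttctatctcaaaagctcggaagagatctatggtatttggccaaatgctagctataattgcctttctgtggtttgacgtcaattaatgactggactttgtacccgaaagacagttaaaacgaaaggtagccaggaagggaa

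The MUC1 window held 4 matches to GGGCGG, of which the first base lay 96, 54, 50 and 46 bases upstream of the start, the last 3 overlapping each other. The MUC16 window held 1, at 47 bases. GGGCGG also matched the windows of MUC3A and MUC4, hence 4 of 6 members, beside 42.6% of all 35116 promoter windows of this length. TGANTCA matched in MUC13 (at 178 bases) and MUC2 (at 151 bases), hence 2 of 6 members, beside 6.57% of all windows. A second annotated start of MUC16, chr19:9010410-9010659, held a TGANTCA match at 136 bases. TTCNNNGAA (STAT) matched only MUC4 of the 6, beside 6.57% of all windows, and neither CCGGAA (ETS, 14.5% of all windows) nor TGTTTAC (FOXA, 2.98%) matched any. GGGCGG lay in the windows of MUC16, which was at least 2-fold higher, and of MUC1 and MUC3A, which lay within 2-fold. It also lay in the window of the unmeasured MUC4. The windows of the unmeasured MUC13 and MUC2 did not hold it. The window of the second MUC16 start did not hold it either. A match describes letters and not a bound site, and whether a match goes with the signals was not tested. MUC5AC, MUC5B, MUC15 and MUC20 had no entry.

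The proteins that act with the mucins were followed by 4 lists of related genes, and most measured members lay within 2-fold in each list except the goblet cell list, where 4 of 8 did. Of 14 partners of membrane mucins (receptors, linkers and sheddases), 13 were measured, 2 were at least 2-fold higher, near the 13.3% of all measured genes, and 0 at least 2-fold lower, against 6.2%, with a median log2 ratio of 0.43 beside 0.12 over all measured genes. MSLN, mesothelin, the surface protein that binds MUC16, had a signal of 15853.1 with gefitinib and 3507.6 with DMSO, 4.52-fold higher (log2 ratio 2.18). MUC16 and MSLN were each measured at a single probe set, and a link between their values was not tested. ERBB2, a receptor that MUC4 binds, had 5101.1 with gefitinib and 2155.2 with DMSO, 2.37-fold higher. ERBB3 had a log2 ratio of 0.92 and CTNNB1, beta-catenin, one of -0.83 at the probe set that stands for the gene. The 3 CTNNB1 probe sets ran from -0.83 to 0.40. EZR, ezrin, which ties membrane proteins to actin, was lower at all 4 of its measured probe sets, from -0.45 at the one that stands for the gene to -1.62, and with the mean over probe sets (-1.07) it was past 2-fold. EGFR itself had 4474.5 with gefitinib and 2856.2 with DMSO at 201984_s_at, 1.57-fold higher, while its 5 measured probe sets ran from -1.29 to 2.93.

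Of 19 genes of the goblet cell program and of mucus proteins, 8 were measured, 3 at least 2-fold higher, against 13.3% of all measured genes, and 1 at least 2-fold lower, against 6.2%, with a median log2 ratio of 0.14. At the probe sets that stand for the genes, 8 reached the floor with gefitinib and only 6 with DMSO. SPDEF, 1 of the 3 counted as higher, and ERN2 (108.3 with gefitinib and 23.5 with DMSO) reached it there only with gefitinib. FOXA2, a transcription factor whose loss in the mouse airway leads to goblet cells, had a signal of 157.6 with gefitinib and 1184.4 with DMSO at 40284_at, 7.52-fold lower (log2 ratio -2.91). Its second measured probe set, 210103_s_at, was 6.17-fold lower, with 100.4 with gefitinib and 619.5 with DMSO. FOXA1, its close relative, went the other way, with 995.0 with gefitinib and 345.3 with DMSO, 2.88-fold higher. AGR3, a member of the protein disulfide isomerase family, had 769.8 with gefitinib and 258.3 with DMSO, 2.98-fold higher. SPDEF, an ETS factor that drives goblet cell differentiation in the mouse, had 255.5 with gefitinib and 97.0 with DMSO at 220192_x_at, at least 2.56-fold higher. With a floor of 200 the log2 ratio at 220192_x_at became a bound of 0.35. At 213441_x_at SPDEF had 248.7 with gefitinib and 101.0 with DMSO, 2.46-fold higher. At 214404_x_at it had 148.8 with gefitinib and 11.3 with DMSO, at least 1.49-fold higher. Of the 5 SPDEF probe sets only these 3 were measured. All 3 carry the _x_at suffix, so their probes may match other transcripts. The 11 genes below the floor included the trefoil peptides TFF1, TFF2 and TFF3, which are secreted with mucins, and FCGBP, CLCA1 and BPIFB1. Apart from AGR2 and its relative AGR3, the listed mucus proteins were thus not measured.

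Of 13 genes of mucin granule exocytosis, 12 were measured, with a median log2 ratio of 0.20. Past 2-fold, 1 was higher, against 13.3% of all measured genes, and 1 was lower, against 6.2%, so both counts were near these shares. SYTL2, which links RAB27 to the membrane, had 2163.8 with gefitinib and 945.6 with DMSO, 2.29-fold higher, and its second probe set was 2.85-fold higher. RAB27A, a GTPase that docks secretory granules, had 383.1 with gefitinib and 1179.1 with DMSO at 210951_x_at, 3.08-fold lower, but its 5 probe sets ran from -1.62 to 0.91 in log2 ratio. With quantile normalization another probe set stood for RAB27A and the log2 ratio was -0.13. DNAJC5, a chaperone of secretory vesicles, had a log2 ratio of 0.91 and RAB3D, a GTPase of secretory granules, 0.71.

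Of 21 enzymes of mucin O-glycosylation, 17 were measured, with a median log2 ratio of 0.05, 2 at least 2-fold higher and 1 at least 2-fold lower, against 6.2% of all measured genes. ST6GALNAC2, which adds sialic acid to the first sugar of the chain, had 1491.6 with gefitinib and 389.4 with DMSO, 3.83-fold higher. ST3GAL1, which caps the core 1 sugar with sialic acid, had 1475.7 with gefitinib and 603.3 with DMSO, 2.45-fold higher, and was higher at all 3 of its probe sets. GCNT3, the enzyme that branches the chain in mucin-secreting tissue, had 130.3 with gefitinib and 358.7 with DMSO, 2.75-fold lower. GALNT12, one of the enzymes that start the chain, had a log2 ratio of 0.99, which lay between 0.80 and 1.17 over the scalings. The share of these enzymes that were at least 2-fold higher, 2 of 17, was near the 13.3% of all measured genes, and GALNT4 was not analysed here.

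**Figure D4:**
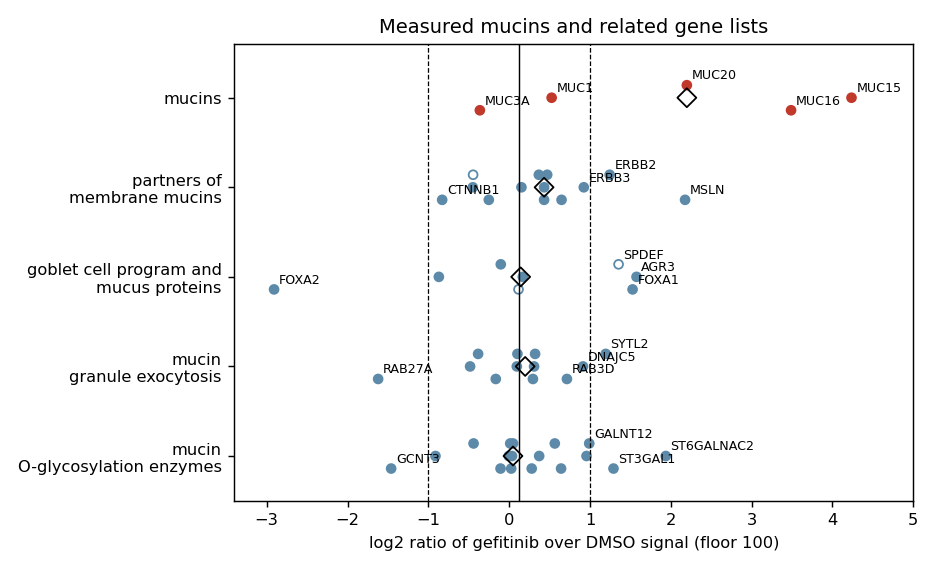
Measured mucins (red) and measured genes of 4 related lists (blue) by their log2 ratio, gefitinib over DMSO (horizontal axis), with 1 array per condition. Diamonds are list medians, from 0.05 for the O-glycosylation enzymes to 2.20 for the mucins, open circles are bounds, the solid line is the median of all measured genes (0.12) and dashed lines mark 2-fold.

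Markers of cell types were read beside these values. All 5 epithelial markers (EPCAM, CDH1, KRT8, KRT18 and KRT19) were measured and lay within 2-fold, and their summed signal was 107683 with gefitinib and 130719 with DMSO. Of the markers annotated here, 0 of 4 leukocyte, 0 of 3 ciliated and 0 of 3 basal and squamous markers reached the floor, and PIFO, TP63 and SFTPA1 were not analysed here. Of 4 alveolar type II markers 3 were measured, all within 2-fold. Some other markers were higher on the gefitinib array, where 13.3% of all measured genes were at least 2-fold higher. SCGB1A1, the secretory protein of club cells, had 460.0 with gefitinib and 60.2 with DMSO, at least 4.60-fold higher, whereas SCGB3A2 was below the floor. The summed signal of these 2 club cell markers was 500.1 with gefitinib and 65.1 with DMSO. Of 3 endothelial markers 2 were measured, VWF with 496.0 with gefitinib and a signal under the floor with DMSO, at least 4.96-fold higher, and PECAM1 with 78.0 with gefitinib and 128.4 with DMSO. The endothelial sum was 588.6 with gefitinib and 173.8 with DMSO. Of 4 fibroblast markers only COL1A1 was measured, with 950.2 with gefitinib and 420.8 with DMSO at 1556499_s_at, and the sum was 976.0 with gefitinib and 431.7 with DMSO. CDH5, COL1A2, COL3A1 and DCN were not measured. The part of these markers in the mucin values was not tested.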

How the data were processed

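RNA of H322c cells treated for 4 days with 1 µM gefitinib or 0.1% DMSO was measured on Affymetrix U133 Plus 2.0 arrays, 1 per condition, and samples were grouped by the treatment in their labels. The authors deposited signal intensities on a linear scale, made with MAS5 according to the submitters' processing notes, with its version not given in the sources used here. The 2% trimmed mean of each array was 500, which would hide a change shared by most transcripts. Of 54675 probe sets, 41097 had 1 gene in the platform annotation, and 1801 with several genes were left out. The other 11777 were not named by it. Symbols were updated through RefSeq gene identifiers, of which 41043 matched.

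Signals under 100 were set to 100, and log2 ratios were computed as gefitinib over DMSO. The brightest measured probe set, by mean log2 signal, stood for a gene. A difference was counted from 2-fold. Because each condition had 1 array, there was no test, and precision is limited by the number of arrays. The mucins and the lists were chosen with earlier results of these data known. All mucins were named, and of each list up to 4 measured genes with the largest log2 ratio and all past 2-fold where these were 6 or fewer; other list genes and neighbours were named after their values were seen. Alternatives were quantile normalization, scaling to 100 normalization-control probe sets, to GAPDH or to 18 spike-in probe sets, a lowess correction (span 0.3), floors of 50 and 200, log2 of the signal plus 50, other rules for the probe set, and thresholds of 1.5-fold and 3-fold. Protein composition of the mucins was planned and is not analysed here. The procedure was tested on simulated data. Calculations used Python 3.11.15 with pandas 2.3.3 and numpy 2.4.6, statsmodels 0.14.6 for lowess, scipy 1.17.1 for the trimmed mean and matplotlib 3.10.9 for figures.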

Additional observations from a re-analysis of the deposited data

How the results depend on the processing

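The count of 3 mucins past 2-fold higher was the same under the 5 scalings, both other floors, log2 of the signal plus 50, the exclusion of _x_at probe sets and the thresholds of 1.5-fold and 3-fold, and it was 4 with the mean over probe sets or the probe set of the highest signal, which added MUC1. The count lower was 0 under all of these. Over the scalings the share of all measured genes called higher ran from 9.42% with the spike-ins to 17.9% with GAPDH, and of the genes past 2-fold 50.5% and 80.4% were higher under these 2 scalings, against 68.2% as reported. The median log2 ratio of the measured mucins ran from 2.01 to 2.37 over the scalings. It moved to 1.36 with a floor of 50, which brought in MUC5AC, and to 2.84 without _x_at probe sets, which left out MUC3A. Among single genes, MUC15 and MUC16 moved by more than the spread of 0.58 between probe sets only with a floor of 200, and MUC1 only with the probe set of the highest signal on either array. The medians of the O-glycosylation and goblet cell lists were -0.14 and -0.02 when scaled to the spike-ins. No library could be left out, since each condition had 1 array.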

Other observations

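Genes with a mucin name outside the family members described above were almost all below the floor. Of 11 other genes with a mucin name, 10 reached the floor on neither array at any of their 18 probe sets. Over the whole array 56.8% of genes were measured. The highest signals of the 18 probe sets were 67.8 with gefitinib and 88.5 with DMSO. The genes below the floor were MUC6, MUC7, MUC12, MUC17, MUC19, MUCL1, MUCL3, OVGP1, EMCN and MCAM. The exception was CD164, a sialomucin of the cell surface and lysosome, with a signal of 7316.3 with gefitinib and 4058.8 with DMSO at 208405_s_at, 1.80-fold higher. Its other 2 probe sets were 1.43-fold and 1.15-fold higher, so CD164 was within 2-fold at all 3. MUC8, an entry of the annotation outside these 11, was also under the floor on both arrays. MUC21 and MUC22 were not analysed here.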
